A study of Mus musculus with 15 samples.

Results

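Bone marrow from mice with acute myeloid leukaemia (AML) was compared with wild-type marrow from which cells bearing mature lineage antigens had been removed, by bulk RNA sequencing of total RNA. The 7 AML marrows came from transgenic mice labelled NUP98-NSD1/FLT3-ITD, and the 4 lineage-negative marrows came from wild-type mice. These are 11 of the 15 samples in the study. The other samples are 4 wild-type whole marrows, which entered the estimate of spread and are quoted where they place a level. Protein-coding genes with a normalized count of at least 10 in at least 4 of the 15 samples were described, 14149 of the 38315 genes in the table. The filter removed 6307 protein-coding genes. The comparison asks how leukaemic marrow differs from the lineage-negative fraction of normal marrow, which also held eosinophil and basophil transcripts, as given below.

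All animals were maintained in the same way from birth, per the labels. The promoters that drive the transgenes, the ages of the mice, the number of mice per sample, the antibodies used for the depletion and the share of blasts are not given in the sources used here. The RNA was taken from leukaemic marrow without a stated depletion of mature cells, whereas the controls were depleted. More cells of a type and more RNA per cell cannot be told apart in bulk samples. Nothing states how the replicates were obtained, so p-values measure the spread between these samples. The table gives 1 value per gene, and neither the fusion transcript nor the internal duplication can be read from it. Nup98 ranged from 2467 to 3512 (median 3152) in AML marrow and was 2945, 3609, 3388 and 3987 in the lineage-negative marrows. Nsd1 measured 5704 to 7928 (median 7079) in AML and 9979.9, 7276, 8099 and 9501 in lineage-negative marrow. Flt3 spanned 870 to 4484 (median 3218) in the AML marrows, against 1863, 1985, 1747 and 1318 in the lineage-negative ones. None of these genes was called, with log2 differences of −0.19, −0.32 and 0.65 and limma adjusted p-values of 0.46, 0.212 and 0.119. AML replicate 6 held the least Flt3. Within the libraries with Y-linked reads described below, Flt3 passed (1.03, limma adjusted p = 0.0379). That set holds 2 AML libraries, replicate 3 with the most Flt3 (4484) and replicate 5 (3223).

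The NUP98-NSD1 fusion joins the FG-repeat part of a nuclear pore protein to a histone H3 lysine 36 methyltransferase, and it is known for high HOXA gene expression in human AML. The internal tandem duplication of the receptor tyrosine kinase FLT3 gives constant signalling through STAT5 and the MAPK pathway. In normal marrow, stem and progenitor cells with Kit and Gata2 give rise to erythroid and megakaryocytic cells under Gata1, and to granulocytes and monocytes under C/EBP factors, Spi1 and Irf8. Granulocytes fill primary granules at the promyelocyte stage, secondary granules at the myelocyte stage, and gain chemoattractant receptors as they mature.

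Estimated depth was 20.3 to 35.1 M reads in the AML libraries and 20.3 to 28.1 M reads in the lineage-negative libraries, with M for 1e+06. A floor of 3 reads lay between 2.54 and 3.82 normalized counts in AML and between 1.96 and 2.72 in lineage-negative marrow, and covers counting error only. The share of genes listed at 0 was 35.7% to 41.0% in lineage-negative marrow and 38.2% to 41.4% in 5 AML libraries, but 29.1% in AML replicate 5 and 23.6% in AML replicate 6. The Y-linked gene Ddx3y was at 1100.1 to 2126 normalized counts in AML replicates 3 and 5 and in lineage-negative replicates 1, 2 and 3, called the libraries with Y-linked reads below, and Xist was at 1.23 to 12.3 there. In the other 6 libraries Ddx3y was listed at 0 and Xist was at 12308 to 46318. The labels give no sex. The first principal component of the 11 libraries held 63.0% of the variance and placed AML at 49.9 to 75.1 and lineage-negative marrow at −130.2 to −101.8. The second held 9.86% and set AML replicate 6 apart, and the third held 7.09% and set AML replicate 3 apart.

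The lineage antigens went with the labels of the control group. Of 8 genes that encode them, 7 rose in AML and 1 fell, and the groups did not overlap for any of the 8. Ly6g, the neutrophil part of the Gr-1 antigen, ranged from 905 to 5377 (median 1658) in AML marrow and was 59, 2.64, 23.8 and 12.4 in the lineage-negative marrows. Itgam, which encodes CD11b, measured 9158 to 26837 (median 14727) in AML and 1287, 486, 519 and 568.3 in lineage-negative marrow. Every AML library lay above every lineage-negative library for both genes, at a log2 difference of 4.58 (SE 0.29, adjusted p = 2.78e-10) for Itgam.

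Of the 14149 protein-coding genes, 2529 were called higher in AML (17.9%) and 1969 were called lower (13.9%), at an adjusted p under 0.05 in limma with Benjamini-Hochberg adjustment and a log2 difference of at least 1 in size. Levels are given in normalized counts, and rises, falls and the medians of gene lists as log2 differences, AML minus lineage-negative. The median over the 14149 genes was −0.01, and the middle of the distribution ran from −0.63 to 0.75 between the quartiles. Large rises outnumbered large falls: 635 genes were called at 8-fold or more higher and 258 at 8-fold or more lower. The groups did not overlap for 5688 genes (40.2%), with AML above in 2704 and below in 2984. In 147 genes called higher, no lineage-negative library held more than 3 reads. The same held for the AML libraries in 27 genes called lower. A gene could pass the filter through any 4 of the 7 AML libraries or through the 4 whole marrows. Through lineage-negative marrow alone it needed all 4 libraries, and the effect of this on these counts was not tested. Within the 2 AML and 3 lineage-negative libraries with Y-linked reads, a choice made after seeing the data, 2296 genes were called higher and 1568 lower.

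**Figure D1:**
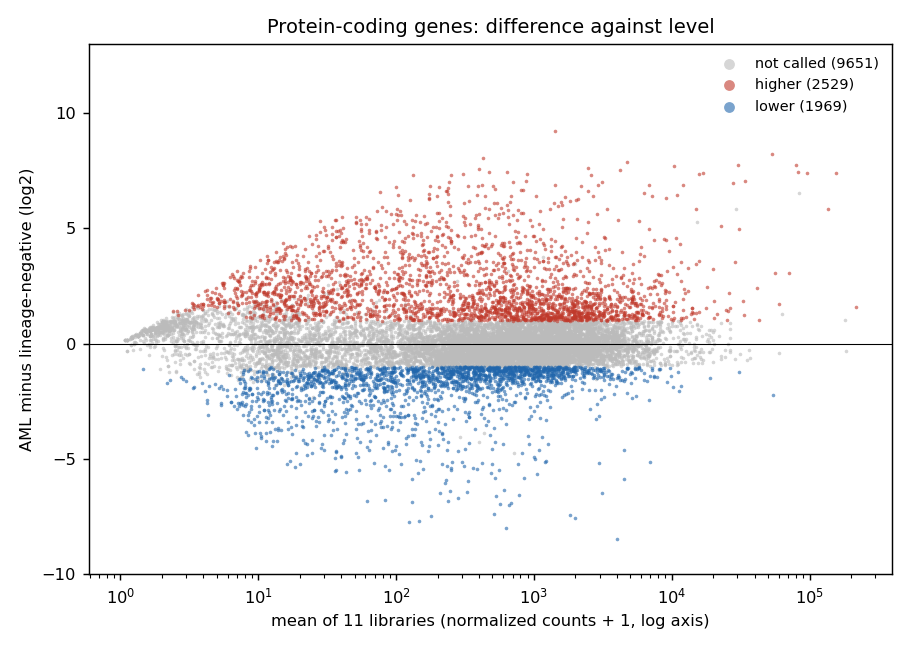
Each point is 1 of the 14149 protein-coding genes, with its mean over the 11 libraries in normalized counts plus 1 on a log axis and its log2 difference, AML minus lineage-negative. The 2529 genes called higher reach a log2 difference of 9.22 and the 1969 called lower reach −8.47.

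Promoters of 3 genes are shown as examples from 3 lists in which most members were called in 1 direction: the erythropoietin receptor, a neutrophil granule protein and an MHC class II chain. Each run is the 250 bases before the start site on the gene's strand, from RefSeq on GRCm38.p6, and the capitals mark matches to 1 motif.
Epor, chr9:21963577-21963826, minus strand, with the GATA letters AGATAA or their complement in capitals: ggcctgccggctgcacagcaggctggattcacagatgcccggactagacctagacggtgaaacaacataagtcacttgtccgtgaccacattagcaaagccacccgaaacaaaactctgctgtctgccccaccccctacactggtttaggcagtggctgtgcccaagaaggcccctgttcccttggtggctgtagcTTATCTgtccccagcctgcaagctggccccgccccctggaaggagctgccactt
Ngp, chr9:110419558-110419807, plus strand, with the C/EBP letters TTGCNNAA or their complement in capitals: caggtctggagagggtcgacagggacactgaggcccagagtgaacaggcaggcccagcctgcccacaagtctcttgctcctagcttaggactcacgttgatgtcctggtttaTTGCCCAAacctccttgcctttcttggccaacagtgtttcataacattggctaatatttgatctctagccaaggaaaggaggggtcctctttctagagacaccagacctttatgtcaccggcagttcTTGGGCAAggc
H2-Eb1, chr17:34305617-34305866, plus strand, with the letters CCAAT or their complement in capitals: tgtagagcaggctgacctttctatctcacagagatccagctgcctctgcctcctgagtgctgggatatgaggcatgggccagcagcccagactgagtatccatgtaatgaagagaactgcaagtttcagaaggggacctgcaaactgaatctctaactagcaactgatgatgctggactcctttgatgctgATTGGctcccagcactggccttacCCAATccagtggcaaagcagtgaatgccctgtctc
The match in Epor begins −54 bases from the start site, those in Ngp at −138 and −11, and those in H2-Eb1 at −59 and −35. Motifs were searched on both strands in windows of 300 bases, from 250 before to 50 after the first listed start of each gene, and matches of different motifs may overlap. A promoter was matched by symbol for 11194 of the 14137 protein-coding symbols kept. AGATAA was held by 7.13% of these, by 7.08% of the genes called higher, by 9.06% of those called lower and by 4 of 14 erythroid progenitor genes (Epor, Tal1, Rhd and Icam4), but also by 3 of 13 secondary and tertiary granule genes and 2 of 7 MHC class II genes. TTGCNNAA was held by 8.75% of the kept genes, by 11.4% of those called higher, by 7.78% of those called lower and by 5 of 13 secondary and tertiary granule genes, 1 of 14 erythroid progenitor genes and none of 7 MHC class II genes. CCAAT was held by 39.0% of the kept genes and by 6 of 7 MHC class II genes, 7 of 14 erythroid progenitor genes and 5 of 13 secondary and tertiary granule genes. CACGTG, the letters of an E-box, was held by 9.58% of the kept genes, by 7.49% of those called higher, by 12.3% of those called lower and by 4 of 19 ribosome biogenesis genes and 2 of 13 secondary and tertiary granule genes. Over all 27025 genes of the promoter table the shares were 11.4% for AGATAA, 10.8% for TTGCNNAA, 37.9% for CCAAT and 7.24% for CACGTG. A match describes the letters of a window and is no evidence of binding.

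Among genes that averaged 100 normalized counts or more over the 11 libraries, the 12 largest rises were led by innate immune receptors and neutrophil granule proteins. Sirpb1c, a signal regulatory protein of the beta type on chromosome 3 (15849309 to 15902692, positions as deposited), spanned 1514 to 3420.3 (median 1842) in the AML marrows, against 9.36, 0, 2.57 and 3.38 in the lineage-negative ones. The difference came to 9.22 on the log2 scale (SE 0.44, adjusted p = 1.80e-11), and 2 of the 4 lineage-negative libraries lay at or under 3 reads. Sirpb1a, 15436713 to 15491580 on the same chromosome, ranged from 373 to 912 (median 761) in AML marrow and was 1.82, 0.881, 0.881 and 1.96 in the lineage-negative marrows. All lineage-negative values of Sirpb1a lay at or under the floor, so that it was at least 267-fold higher in AML. The Sirpb1 genes are close paralogs, and the split of reads between them is uncertain.

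Chil3, a chitinase-like protein of neutrophils and macrophages, measured 32624 to 252255 (median 42038) in AML and 510.1, 41.4, 447 and 181 in lineage-negative marrow. AML replicate 6 held the highest level of Chil3, and every AML marrow exceeded every lineage-negative marrow. Olfm4, a glycoprotein of a subset of neutrophils, spanned 2657 to 15535 (median 4337) in the AML marrows, against 71.7, 3.53, 37 and 30 in the lineage-negative ones. Orm1, the acute-phase protein orosomucoid, ranged from 331 to 1771 (median 413) in AML marrow and was 4.54, 0, 3.53 and 1.31 in the lineage-negative marrows. Cldn1, a tight-junction claudin, measured 476 to 1028 (median 721) in AML and 1.82, 3.53, 4.41 and 3.26 in lineage-negative marrow. For these genes the AML groups lay wholly above the lineage-negative ones, with log2 differences of 8.24, 7.89, 7.57 and 7.44. Whole marrow held 219.9 to 576 normalized counts of Cldn1 and 224 to 490.4 of Orm1. The other large rises were Camp (7.74), Ngp (7.74), H2-Eb1 (7.72), Fpr2 (7.63), Ltf (7.44) and the integrin gene Itgb2l (7.51), and most are described with their lists.

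**Figure D2:**
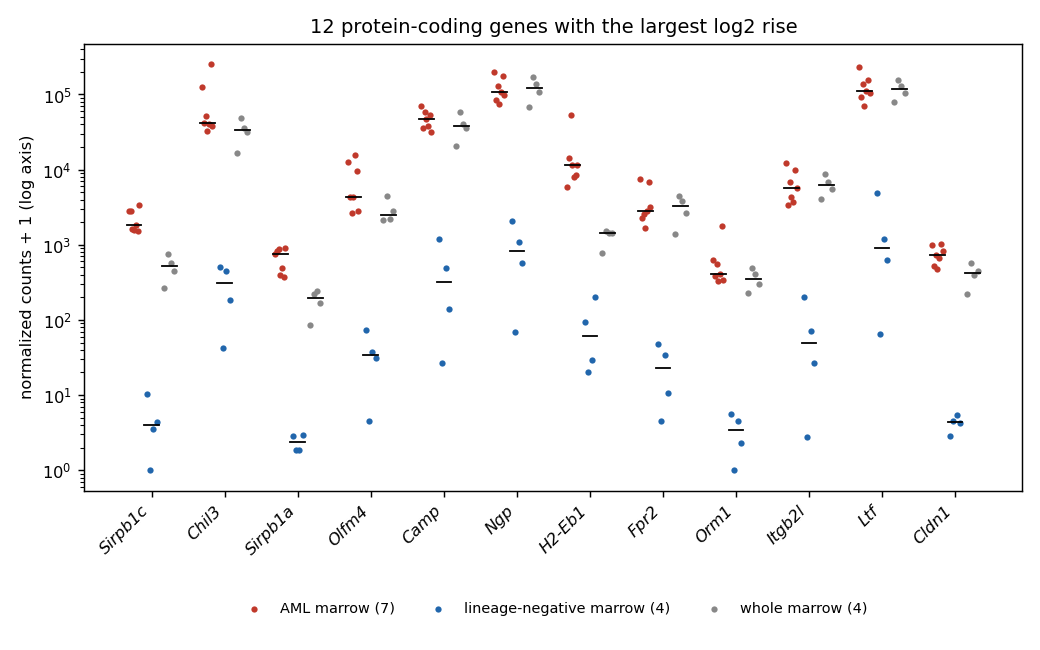
Normalized counts plus 1 on a log axis for the 12 protein-coding genes with the largest log2 rise, 1 point per library and a bar at the median of each group. The 7 AML marrows lie above the 4 lineage-negative marrows for all 12 genes, and the 4 whole marrows lie above the lineage-negative marrows as well.

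The 12 largest falls were led by red cell and eosinophil genes. Car1, carbonic anhydrase of erythroid cells (14831276 to 14873428 on chromosome 3), was at 8143, 12603, 12852 and 10252 in the lineage-negative marrows and ranged from 1.27 to 93.8 (median 58.5) in AML. With an SE of 0.69, the fall of Car1 came to 8.47 (adjusted p = 7.14e-09), and AML replicate 1 held 1 read. Pklr, the pyruvate kinase of liver and red cells, measured 1824, 1751, 1460 and 1851 in lineage-negative marrow and 0 to 11.8 (median 8.37) in AML. Klf1, the transcription factor that drives globin and membrane genes, held 1696, 2045, 1622 and 1993 in the lineage-negative marrows, against 3.82 to 31.3 (median 19.6) in AML marrow. No AML library reached a lineage-negative one in any of these genes.

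Sphk1, which makes the lipid mediator sphingosine-1-phosphate, was at 1778, 1795, 1603 and 1977 in the lineage-negative marrows and ranged from 4.9 to 19.7 (median 14.2) in AML. Its fall of 7.00 on the log2 scale had the smallest SE of the 12 (0.31). Atp7b, a copper-transporting ATPase, measured 1681, 1081, 1119 and 1699 in lineage-negative marrow and 1.27 to 34.6 (median 6.61) in AML. Slc25a21, a mitochondrial carrier of oxodicarboxylates, held 417, 452, 451 and 613 in the lineage-negative marrows, against 0 to 6.17 (median 1.12) in AML marrow. Prss50, a serine protease best known from testis, was at 348, 338, 229 and 427 in the lineage-negative marrows and ranged from 0 to 2.53 (median 0) in AML. All AML values of Prss50 lay at or under 3 reads, which makes it at least 101-fold lower in AML. The remaining large falls were Sh2d4a (−7.68), Epx (−7.57), Ermap (−7.46), Ear6 (−6.94) and the aldehyde dehydrogenase gene Aldh1a7 (−6.87).

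**Figure D3:**
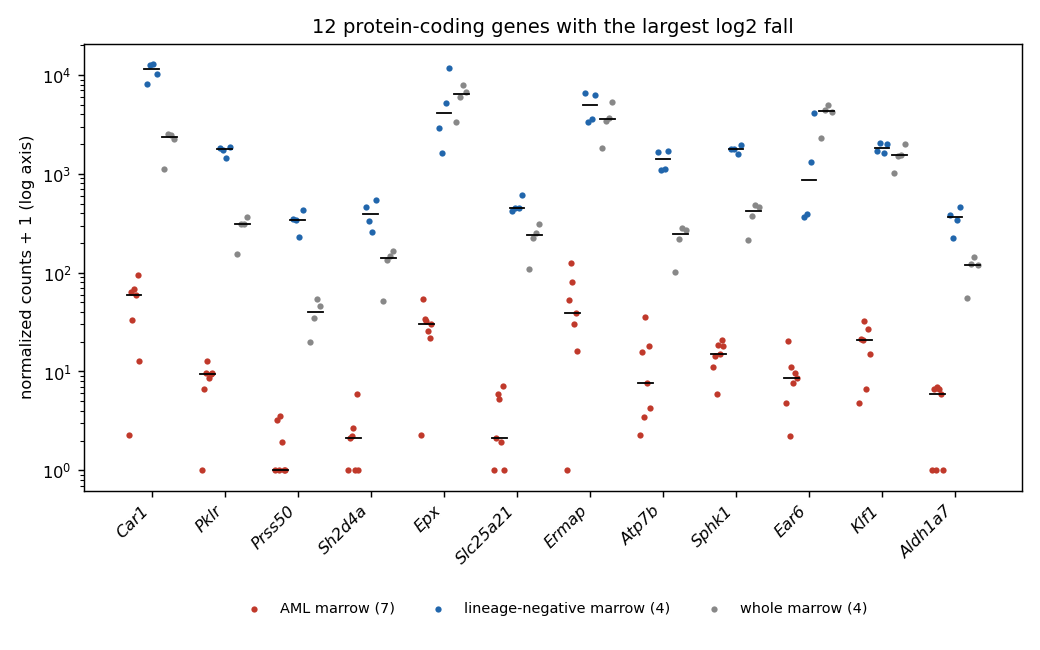
Normalized counts plus 1 on a log axis for the 12 protein-coding genes with the largest log2 fall, 1 point per library and a bar at the median of each group. The 7 AML marrows lie below the 4 lineage-negative marrows for all 12 genes, and most whole marrow values lie between the other two groups.

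In absolute terms the largest gains were in S100a9, Lyz2, Actb, S100a8 and Ltf. Lyz2, lysozyme of granulocytes and macrophages, spanned 146073 to 334206 (median 203159) in the AML marrows, against 6198, 2602, 3192 and 3339.5 in the lineage-negative ones. Actb, cytoplasmic actin, ranged from 214535 to 411925 (median 276493) in AML marrow and was 99349.8, 111588, 89654 and 76240.4 in the lineage-negative marrows. The rise of Actb of 1.60 (adjusted p = 0.00183) was lost with quantile scaling (0.41, adjusted p = 0.263), with the replicate number as a block (adjusted p = 0.0959) and within the libraries with Y-linked reads (adjusted p = 0.134). The largest losses were in Mpo, Hsp90ab1, Calr, Prss34 and Cdk6. Calr, an endoplasmic reticulum chaperone, measured 30310.4, 37841, 29692 and 28618 in lineage-negative marrow and 8052 to 17608 (median 10740) in AML. Hsp90ab1, a cytosolic chaperone, held 53007, 58460, 40669 and 41039 in the lineage-negative marrows, against 16815 to 24946 (median 20032) in AML marrow. Both chaperones lay lower in every AML marrow, at −1.49 and −1.23 on the log2 scale. The call of Hsp90ab1 was lost within the libraries with Y-linked reads (adjusted p = 0.0561).

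Neutrophil genes differed by the stage at which they are made. Among 15 secondary and tertiary granule genes, 15 rose and the groups overlapped for none, with a median log2 difference of 7.06 against −0.01 over all protein-coding genes. Ngp, whose promoter is given above (110248815 to 110252080 on chromosome 9), measured 73969.8 to 199106 (median 106579) in AML and 2078, 68.7, 1087 and 567 in lineage-negative marrow. Camp, the cathelicidin antimicrobial peptide, spanned 31635 to 69669 (median 47079) in the AML marrows, against 1175, 25.6, 495 and 137 in the lineage-negative ones. AML replicate 1 held the most of both. Ltf, the iron-binding lactotransferrin, ranged from 70989 to 231177 (median 111185) in AML marrow and was 4885, 64.3, 1184 and 620 in the lineage-negative marrows. Lcn2, which captures bacterial siderophores, measured 20887 to 99200.5 (median 39179.6) in AML and 1176, 69.6, 537 and 321 in lineage-negative marrow. For each of these, lineage-negative replicate 1 was the highest of its group and replicate 2 the lowest, and neither reached the AML range. The smallest rises of the list were 1.86 for the protease inhibitor Slpi, 3.27 for haptoglobin (Hp) and 4.06 for the peptidoglycan recognition protein Pglyrp1. Summed over the list, these genes took 1.04% to 3.59% of the AML libraries, 0.0157% to 0.077% of the lineage-negative libraries and 2.26% to 3.19% of the whole marrow libraries.

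All 20 mature neutrophil genes were also called higher, with a median of 4.65, or 4.32 with Stfa1 and Stfa3 at their lower bounds. S100a9, a subunit of calprotectin, spanned 119887 to 477315 (median 210729) in the AML marrows, against 5246, 263, 2596 and 847 in the lineage-negative ones. S100a8, its partner, ranged from 61277 to 291953 (median 132867) in AML marrow and was 1714, 209, 1807 and 627 in the lineage-negative marrows. Both AML ranges lay wholly above the controls. Fpr2 and Fpr1, receptors for formylated bacterial peptides, rose by 7.63 and 7.37. Fpr2 measured 1669 to 7519.5 (median 2820.2) in AML and 46.3, 3.53, 33.5 and 9.79 in lineage-negative marrow. Csf3r, the receptor of granulocyte colony-stimulating factor, spanned 1805 to 8897 (median 4948) in the AML marrows, against 1168, 1141, 1075 and 1036 in the lineage-negative ones.

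Primary granule genes were mixed: of 10, 2 rose and 3 fell (median −0.93), against 17.9% and 13.9% of all protein-coding genes. Mpo, myeloperoxidase, was at 119961, 124161, 88137 and 79425 in the lineage-negative marrows and ranged from 8584 to 56934 (median 31826) in AML. Ctsg, cathepsin G, measured 20978, 15779.8, 12593 and 12881 in lineage-negative marrow and 1896 to 9141 (median 6665) in AML. Mpo fell by 2.21 (adjusted p = 0.000345) and Ctsg by 1.68 (adjusted p = 0.00167) on the log2 scale, with no overlap between the groups. Nkg7, a granule membrane protein, was lower by the same test (−1.31). Elane and Prtn3, the elastase and proteinase 3 genes, had log2 differences of −1.16 and −0.93 and adjusted p-values of 0.0514 and 0.0517. Leaving out 1 AML library raised the number called lower to 5 (replicate 1 or 4), 6 (replicate 5) or 7 (replicate 6), with Elane and Prtn3 among them each time. In contrast, Ctsc, the cathepsin that activates these proteases, ranged from 4115 to 13269 (median 6919) in AML marrow and was 1406, 1437, 998 and 1404 in the lineage-negative marrows. Fcnb, ficolin B, measured 949 to 2343 (median 1973) in AML and 138, 37.9, 98.7 and 42.4 in lineage-negative marrow. Ctsc and Fcnb rose by 2.60 and 4.53.

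Monocyte genes rose without exception: 16 of 16, with a median of 3.23. Fn1, fibronectin, spanned 22358 to 78546 (median 45266) in the AML marrows, against 4677, 466.2, 762.4 and 2261 in the lineage-negative ones. Vcan, the proteoglycan versican, ranged from 664 to 8923 (median 1903) in AML marrow and was 50.8, 6.17, 30.8 and 45.7 in the lineage-negative marrows. AML lay above the controls for both of these matrix proteins. Ccr2, the receptor that takes monocytes out of the marrow, measured 16821 to 39725 (median 31702) in AML and 2729.9, 3409.7, 2557 and 3324 in lineage-negative marrow. Csf1r, the macrophage colony-stimulating factor receptor, spanned 4703 to 13926 (median 12084) in the AML marrows, against 3843, 3041, 2051 and 2588 in the lineage-negative ones. The receptors did not overlap either, and AML replicate 6 held the lowest Csf1r. F13a1, coagulation factor XIII, had the smallest rise (1.29), overlapped between the groups, and was not called within the libraries with Y-linked reads (adjusted p = 0.242). Cd14 and Cx3cr1 rose by 1.71 and 1.81, also with overlap, and Cd14 was not called within those libraries (adjusted p = 0.11).

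Of 14 macrophage genes, 12 rose (median 3.52). Siglec1, the sialic acid receptor CD169, ranged from 50.2 to 605 (median 265) in AML marrow and was 4.54, 2.64, 0.881 and 14.4 in the lineage-negative marrows. C1qb, a chain of complement C1q, measured 146 to 1340.1 (median 379.9) in AML and 13.6, 6.17, 1.76 and 28.1 in lineage-negative marrow. Mrc1, the mannose receptor, spanned 603 to 4045 (median 1297) in the AML marrows, against 58.1, 36.1, 30.8 and 83.5 in the lineage-negative ones. AML stood above the controls in all 3. Cd163 and Slc40a1, the haemoglobin scavenger receptor and the iron exporter ferroportin, were at log2 differences of 0.45 and 0.56 and were not called. Cd163 ranged from 45.7 to 480.4 (median 399) in AML marrow and was 205, 181, 159.5 and 230.4 in the lineage-negative marrows. AML replicate 6 held the least Cd163, and it passed within the libraries with Y-linked reads (1.27, adjusted p = 0.0234).

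Conventional dendritic cell genes followed, with 7 of 8 higher and a median of 3.52. Batf3, a transcription factor of cross-presenting dendritic cells, measured 59.8 to 522 (median 122) in AML and 3.63, 3.53, 3.53 and 1.96 in lineage-negative marrow, while whole marrow held 3.59 to 9.55. Naaa and Cd209a rose by 4.56 and 3.71, and Clec9a by 2.07, with overlap for Cd209a and Clec9a. Cd209a was not called with voom on estimated reads (adjusted p = 0.0623). Zbtb46, a transcription factor of the same lineage, was not called (−0.50, adjusted p = 0.335). Of 7 plasmacytoid dendritic cell genes, 5 rose (median 1.69), and 3 did within the libraries with Y-linked reads. Siglech, their surface lectin, spanned 55.5 to 2224 (median 1279) in the AML marrows, against 53.6, 37, 41.4 and 45.7 in the lineage-negative ones. Ly6d rose by 4.29, while Tcf4 and Runx2, which encode regulators of these cells, were at log2 differences of 0.63 and 0.45 and were not called.

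MHC class II genes, which present peptides to CD4 T cells, rose in 9 of 10 cases, with a median of 4.66. H2-Eb1, on chromosome 17 (34524841 to 34535648), ranged from 5948 to 53387 (median 11375) in AML marrow and was 93.5, 19.4, 28.2 and 200.4 in the lineage-negative marrows. H2-Aa, the alpha chain of the A molecule, measured 9470.1 to 85245 (median 19202) in AML and 197, 49.4, 75.8 and 263 in lineage-negative marrow. AML replicate 3 held several times the level of any other marrow. Cd74, the invariant chain, spanned 16908 to 139510 (median 28809.7) in the AML marrows, against 486, 70.5, 164 and 939 in the lineage-negative ones. Ciita, the transactivator of the class II genes, ranged from 1505 to 9598 (median 1816) in AML marrow and was 43.6, 9.69, 37 and 71.8 in the lineage-negative marrows. AML replicate 3 held by far the most of these as well, and for all 4 genes the lowest AML marrow still exceeded the highest lineage-negative marrow by an order of magnitude or more. Without AML replicate 3, 8 of the 10 genes were called higher with a median of 4.26. Summed, the list took 0.165% to 0.395% of 6 AML libraries and 1.48% of replicate 3, against 0.0135% to 0.0206% of lineage-negative and 0.0731% to 0.0891% of whole marrow libraries. H2-Ob, a chain of the peptide-exchange inhibitor, was not called (0.67, adjusted p = 0.338).

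Class I genes moved less. Of 10, 7 rose and the groups overlapped for 1, with a median of 1.21. H2-D1, a classical heavy chain, measured 36552 to 53971 (median 43654) in AML and 13863, 13855, 11496 and 10191 in lineage-negative marrow. B2m, beta-2 microglobulin, spanned 18428 to 51944 (median 27869) in the AML marrows, against 4926, 16827, 12151 and 14264 in the lineage-negative ones. Their log2 differences were 1.86 and 1.47. Tap2, a subunit of the peptide transporter, was at a log2 difference of 0.16 and was not called. Within the libraries with Y-linked reads 4 of the 10 genes were called higher.

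**Figure D4:**
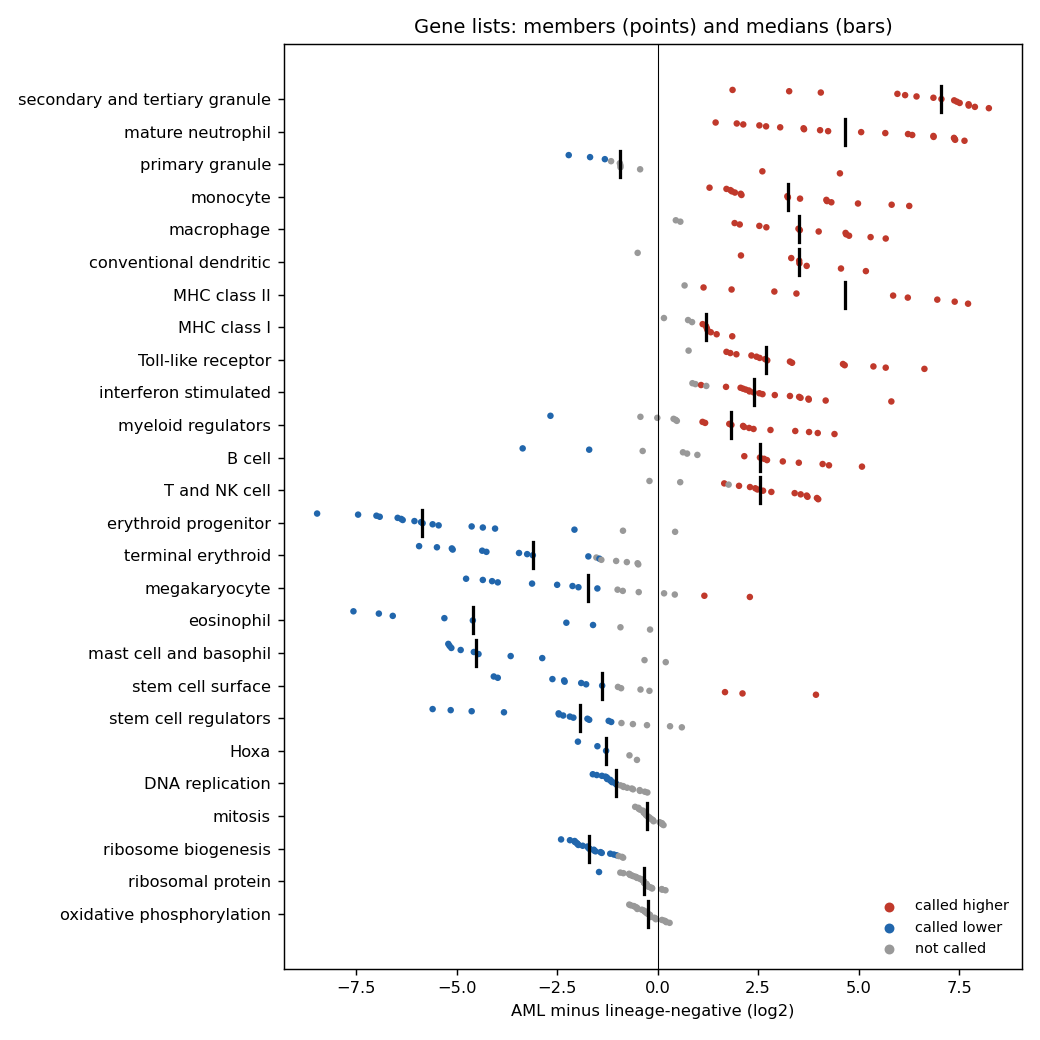
Log2 differences, AML minus lineage-negative, of the kept members of 26 gene lists, with a bar at each median and colours for the call. Secondary granule, mature neutrophil, monocyte and antigen presentation medians lie to the right of 0, up to a median of 7.06, and erythroid, eosinophil and basophil medians to the left, down to −5.87.

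Receptors of the innate immune system rose in nearly every case. Of 16 Toll-like receptor genes and adaptors, 15 rose (median 2.70). Tlr13, a sensor of bacterial ribosomal RNA, ranged from 2725 to 5109 (median 4175) in AML marrow and was 89.9, 17.6, 28.2 and 41.1 in the lineage-negative marrows. Tlr11, which detects profilin, measured 95.4 to 1310 (median 137) in AML and 2.72, 1.76, 2.64 and 3.92 in lineage-negative marrow. Tlr3, which detects double-stranded RNA, spanned 77.7 to 908 (median 132) in the AML marrows, against 4.54, 2.64, 5.29 and 10.4 in the lineage-negative ones. AML replicate 3 lay far above the other AML marrows for Tlr11 and Tlr3, and not for Tlr13. The adaptor Ticam1 was at a log2 difference of 0.77 and was not called, and Cd14 and Tlr12 had the smallest rises (1.71 and 1.81). Of 13 C-type lectin genes kept, 12 rose (median 2.66), led by Clec4a3, which ranged from 795 to 1991 (median 1461) in AML marrow and was 14.5, 1.76, 15.9 and 11.1 in the lineage-negative marrows. Clec12a was at a log2 difference of 0.95 and was not called.

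Of 5 genes of the SIRP family and its ligand, 4 rose. Sirpb1b measured 463 to 1524 (median 918) in AML and 14.2, 0.881, 6.25 and 3.15 in lineage-negative marrow. Sirpa, the inhibitory member, rose by 2.56, and Cd47, the ligand, was at a log2 difference of 0.36 and was not called. Of 17 paired immunoglobulin-like receptor genes, 16 rose (median 4.08, or 4.00 with Lilra5 at its bound). Cd300ld spanned 278 to 1250.3 (median 966) in the AML marrows, against 18.2, 4.41, 8.81 and 12.7 in the lineage-negative ones, and Tyrobp, the signalling adaptor of the activating receptors, rose by 2.96. All 5 Fc receptor genes rose (median 2.60). Fcgr4, a receptor of immunoglobulin G, ranged from 361 to 1973 (median 922) in AML marrow and was 4.54, 22, 14.1 and 15 in the lineage-negative marrows. Of 9 genes of the MS4A family of membrane proteins, 8 rose (median 4.21). Ms4a8a measured 169 to 763 (median 421) in AML and 7.26, 1.76, 0 and 0 in lineage-negative marrow. Ms4a4a spanned 121 to 627 (median 215) in the AML marrows, against 9.08, 0, 0 and 0.653 in the lineage-negative ones. AML also lay above the 6.28 to 23.2 that whole marrow held of Ms4a4a. Many of these genes lie in clusters of paralogs, where the assignment of reads is uncertain.

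Effector genes of phagocytes rose as well. All 6 genes of the NADPH oxidase, which makes the superoxide of the phagocyte burst, were higher (median 2.61). Cybb, its catalytic subunit, ranged from 21241 to 49734 (median 35226) in AML marrow and was 1541, 734, 778 and 1023 in the lineage-negative marrows. Cyba, the other membrane subunit, measured 6390.2 to 11121 (median 8075) in AML and 1275, 1385, 1000.3 and 1035 in lineage-negative marrow. Rac2, the small GTPase of the complex, had the smallest rise (1.62), again with no overlap. Of 20 lysosome genes, 15 rose (median 1.52). Ctss, cathepsin S, which trims the invariant chain, spanned 13167 to 24115 (median 17459) in the AML marrows, against 1478, 765, 554 and 899 in the lineage-negative ones. Lgmn and Ctsh rose by 3.15 and 2.99. Gaa, acid glucosidase, was at a log2 difference of −0.67 (adjusted p = 0.0105), under the size required.

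Interferon-stimulated genes were higher in 18 of 21 cases (median 2.39), and in 21 without AML replicate 3. Mx1 and Mx2, both among the 18, are annotated as polymorphic pseudogenes and lie outside the 14149 protein-coding genes. Ifit3 ranged from 196 to 2337 (median 922) in AML marrow and was 22.4, 20.2, 2.64 and 20.7 in the lineage-negative marrows. Irf7, the regulator that amplifies the response, measured 1413 to 7296 (median 3635) in AML and 237, 306, 232 and 381 in lineage-negative marrow. Oasl1 and Ifit2 were at log2 differences of 0.86 and 0.94 and were not called. Of 15 inflammasome and cytokine genes kept, 10 rose and 1 fell (median 1.35). Il1b spanned 425 to 1078 (median 560.2) in the AML marrows, against 51.7, 12.3, 39.7 and 45 in the lineage-negative ones. Its natural antagonist Il1rn ranged from 131 to 957 (median 445) in AML marrow and was 9.08, 1.76, 22 and 13.1 in the lineage-negative marrows. Il6 was the 1 that fell: it held 103, 116, 245 and 92.7 in the lineage-negative marrows, against 0 to 8.58 (median 1.27) in AML marrow. Of 10 chemokine and lipid homing receptor genes kept, 9 rose (median 2.77). Cxcr2, the receptor that calls neutrophils out of the marrow, measured 1442 to 10236 (median 3115) in AML and 314, 233, 370.2 and 215 in lineage-negative marrow, with no overlap. Cxcr4, which holds cells in the marrow, rose by 1.15 with overlap and was not called with quantile scaling (0.96) or within the libraries with Y-linked reads (adjusted p = 0.294). S1pr1 was at a log2 difference of −1.02 and did not pass.

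Of 13 checkpoint genes, 9 rose (median 3.04). Pdcd1, which encodes PD-1, spanned 43.4 to 1225 (median 135) in the AML marrows, against 0.908, 6.17, 1.76 and 9.79 in the lineage-negative ones. Tigit and Ctla4, inhibitory receptors of T cells, rose by 4.59 and 4.62. Tigit ranged from 8.49 to 466.4 (median 56.6) in AML marrow and was 4.54, 0, 0.881 and 1.96 in the lineage-negative marrows. Vsir, Havcr2, Cd86 and Cd80 rose by 3.04, 3.52, 3.71 and 3.72. Cd274, which encodes PD-L1, and Lgals9, galectin-9, were at log2 differences of 0.14 and −0.96 and were not called. T cell genes moved with this list, as given in the next paragraph, and their part in it was not tested. Of 18 adhesion genes, 12 rose and 1 fell (median 1.38). Itgb7, an integrin beta chain, measured 6846 to 13719 (median 9698) in AML and 2712, 1860.4, 1496 and 1578 in lineage-negative marrow. Itga6, the alpha chain of a laminin receptor, was at 1600.2, 2055, 1807 and 1649.8 in the lineage-negative marrows and ranged from 582 to 982 (median 668) in AML.

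Genes of T and NK cells rose in 13 of 16 cases (median 2.55), at low levels. Cd3e spanned 49.1 to 464 (median 138) in the AML marrows, against 11.8, 7.93, 7.05 and 20.2 in the lineage-negative ones. Cd4 and Cd3g rose by 3.96 and 3.99, while Ncr1 and Klrb1c, receptors of NK cells, were at log2 differences of −0.20 and 0.56 and were not called. The list took 0.00673% to 0.0284% of the AML libraries and 0.00216% to 0.00437% of the lineage-negative libraries, with AML replicates 6 and 3 highest. B cell genes were mixed: of 15 kept, 9 rose and 2 fell. Ms4a1, which encodes CD20, ranged from 33.1 to 1417 (median 115) in AML marrow and was 6.35, 3.53, 3.53 and 20.2 in the lineage-negative marrows. It rose by 4.10, with no overlap. The B cell share was highest in AML replicate 3 (0.0375%) and lowest in AML replicate 1 (0.00324%), around the 0.00849% to 0.00918% of lineage-negative marrow. Dntt, the terminal transferase of lymphoid progenitors, measured 1235, 1181, 961 and 663 in lineage-negative marrow and 13.6 to 416 (median 145) in AML. Rag2 fell by 1.70 with overlap, and its call was lost in 12 of 25 alternatives. Of 14 stromal and endothelial genes kept, 7 rose and 2 fell, and 1 fell without lineage-negative replicate 2 or 4. Cdh5, VE-cadherin, measured 24.5 to 262 (median 154) in AML and 0.908, 0.881, 0 and 18.9 in lineage-negative marrow. Pdgfrb, a receptor of mesenchymal cells, held 1002, 704.2, 813 and 477 in the lineage-negative marrows, against 76.5 to 330.4 (median 145) in AML marrow. The chemokine gene Cxcl12 was at a log2 difference of 1.71 (adjusted p = 0.0404), and this call was lost in 16 of 25 alternatives.

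**Figure D5:**
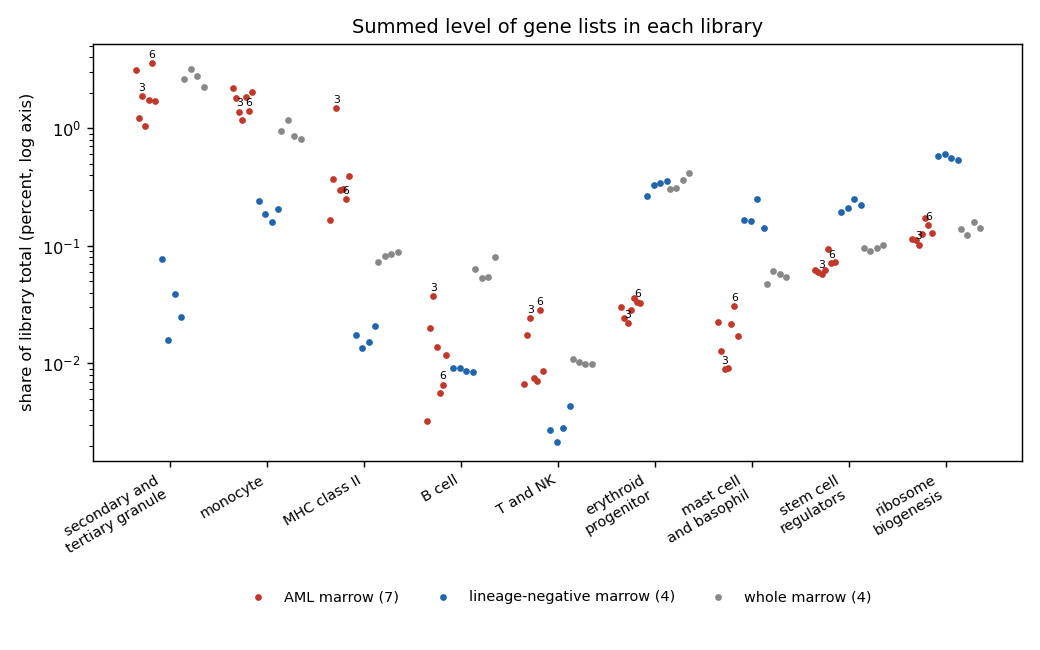
Share of the library total, in percent on a log axis, taken by the summed normalized counts of 9 gene lists, 1 point per library, with AML replicates 3 and 6 numbered. AML replicate 3 stands at 1.48% for MHC class II, and B cell shares of AML marrow spread on both sides of the lineage-negative values.

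Erythroid progenitor genes fell furthest as a list. Of 18, 16 were called lower, with a median of −5.87, and the groups did not overlap for 16. Gata1, the master regulator of the lineage, was at 1696, 1618, 1464 and 1707 in the lineage-negative marrows and ranged from 5.09 to 42 (median 21.1) in AML. Epor, the erythropoietin receptor (21870193 to 21874802 on chromosome 9), measured 637, 746, 639.9 and 623 in lineage-negative marrow and 2.16 to 16 (median 8.49) in AML. Gfi1b and Tal1, which act with Gata1, fell by 5.60 and 4.63 on the log2 scale. Ermap, an erythroid membrane protein, held 6569, 3349.8, 3585 and 6297 in the lineage-negative marrows, against 0 to 125 (median 38.3) in AML marrow. Tfrc, the transferrin receptor, and Nfe2, a transcription factor shared with megakaryocytes and myeloid cells, were at log2 differences of −0.86 (adjusted p = 0.0213) and 0.43 (adjusted p = 0.128) and were not called. Tfrc passed with quantile scaling, with the replicate block and without lineage-negative replicate 1.

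Of 17 terminal erythroid genes, 11 fell (median −3.11, or −1.60 within the libraries with Y-linked reads), and the haemoglobin genes were not among them. Tspo2, a membrane protein of maturing red cells, was at 652, 533, 522 and 651 in the lineage-negative marrows and ranged from 0.944 to 101 (median 5.09) in AML. It fell by 5.94 and Kel, a blood group protein, by 5.49. Hbb-bs, an adult beta globin gene, measured 14642, 798, 1654 and 2248 in lineage-negative marrow and 202 to 12691 (median 1687) in AML. Alas2, the erythroid enzyme that opens haem synthesis, held 664, 33.8, 87.5 and 124 in the lineage-negative marrows, against 5.49 to 579 (median 84.9) in AML marrow. Both ranges overlapped, with lineage-negative replicate 1 highest in its group. Neither was called, and the log2 differences of −0.48 and −0.51 became 0.35 and 0.29 without that replicate. Whole marrow held 353501 to 872257 normalized counts of Hbb-bs. Of 11 haem synthesis genes, 7 fell (median −1.15), and 4 did within the libraries with Y-linked reads. Alad and Cpox, an early and a late enzyme, fell by 2.45 and 2.43. Alad was at 1405, 1339.6, 1215 and 1243 in the lineage-negative marrows and ranged from 170.4 to 317 (median 229) in AML.

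Megakaryocyte genes were lower in 9 of 16 cases and higher in 2 (median −1.74). Itga2b, the integrin CD41, measured 2819, 2194, 2661 and 1570.2 in lineage-negative marrow and 39.9 to 259 (median 111) in AML. Gp5, platelet glycoprotein V, held 216, 269, 308 and 273 in the lineage-negative marrows, against 2.16 to 20.8 (median 8.58) in AML marrow. Pf4, platelet factor 4, was at 175, 643, 408 and 429 in the lineage-negative marrows and ranged from 0 to 109 (median 24.2) in AML. AML lay below in all 3. The genes of the list that rose were Thbs1, thrombospondin, by 2.29 and Itgb3, an integrin beta chain, by 1.16. Ppbp and Clec1b were at log2 differences of 0.43 and 0.16 and were not called.

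Eosinophil genes fell in 7 of 9 cases (median −4.60). Epx, eosinophil peroxidase, measured 2895, 1622, 5271 and 11716 in lineage-negative marrow and 1.27 to 52.9 (median 29.1) in AML. Prg2, the major basic protein, held 9498, 4729.9, 13234 and 18992 in the lineage-negative marrows, against 267 to 1254 (median 333) in AML marrow. Ear6, an eosinophil ribonuclease, was at 363, 388, 1326 and 4091 in the lineage-negative marrows and ranged from 1.23 to 19.1 (median 7.55) in AML. Lineage-negative replicate 4 held the most of all 3, and the 3323 to 7994 of whole marrow lay within the lineage-negative range for Epx. Ear2 and Ccr3 were at log2 differences of −0.19 and −0.93 and were not called, and reads of the Ear paralogs may be split. Of 10 mast cell and basophil genes kept, 8 fell (median −4.52). Summed, this list took 0.142% to 0.25% of the lineage-negative libraries and 0.00888% to 0.0306% of the AML libraries. Whole marrow libraries lay between, at 0.0477% to 0.061%. Prss34 and Mcpt8, basophil proteases, fell by 5.13 and 5.18. Mcpt8 measured 7723, 7537, 9924 and 5406 in lineage-negative marrow and 62.5 to 691 (median 247) in AML. Ms4a2, the beta chain of the high-affinity IgE receptor, held 1620.2, 2072, 2611 and 1685 in the lineage-negative marrows, against 13.5 to 157 (median 43.1) in AML marrow. Hdc, which makes histamine and is also expressed in neutrophils, was at a log2 difference of 0.20 and was not called, nor was Gzmb (−0.33).

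Stem and progenitor genes were mostly lower. Of 15 surface genes, 8 fell and 3 rose (median −1.38, or −0.79 with a mean of at least 50 required). Kit, the stem cell factor receptor, was at 5130.2, 6176, 6667 and 6317 in the lineage-negative marrows and ranged from 547 to 1730.4 (median 959) in AML. Cd34, a progenitor sialomucin, measured 4185, 7826, 6814 and 6158 in lineage-negative marrow and 477 to 3127 (median 1199) in AML. Tek, the angiopoietin receptor of quiescent stem cells, held 49, 185, 133 and 146 in the lineage-negative marrows, against 2.54 to 19.7 (median 4.9) in AML marrow. AML lay below the controls in each of these. Ly6a, which encodes the Sca-1 antigen, did the opposite: it spanned 418 to 1855 (median 823) in the AML marrows, against 30.9, 58.2, 87.3 and 70.5 in the lineage-negative ones. Prom1, the antigen CD133, rose by 2.11, and Thy1 by 1.67. Slamf1, Procr and Fgd5, used to mark long-term stem cells, were at log2 differences of −0.99, −0.43 and −0.91 and were not called.

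Among 18 transcription factor genes of stem cells, 13 fell and none rose (median −1.92). Gata2, needed for stem cells and mast cells, was at 3803, 2617, 3623 and 2439.5 in the lineage-negative marrows and ranged from 38.2 to 194 (median 83.2) in AML. Myb, which sustains progenitor division, measured 11986, 15459, 14779.8 and 13767 in lineage-negative marrow and 1428 to 4919 (median 2339) in AML. Hlf and Mecom, both tied to stem cell dormancy, fell by 2.19 and 2.35. Mecom held 66.3, 88.1, 82.8 and 94.6 in the lineage-negative marrows, against 8.91 to 32.1 (median 13.5) in AML marrow. Runx1 and Erg were at log2 differences of −0.27 and −0.90 and were not called, and Fli1 was at a log2 difference of 0.60 (adjusted p = 0.00649), under the size required.

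Of the 11 Hoxa genes, 5 passed the filter on low values, and 3 of these were called lower. Hoxa9 was at 314, 471, 396 and 373 in the lineage-negative marrows and ranged from 63.7 to 227 (median 137) in AML. Hoxa10 measured 30, 42.3, 41.4 and 32.6 in lineage-negative marrow and 1.27 to 25.3 (median 10.1) in AML. Hoxa5 fell by 1.28 with overlap, and the call was lost without lineage-negative replicate 2 (adjusted p = 0.0505), with array weights (−0.99) and within the libraries with Y-linked reads (adjusted p = 0.0624). Hoxa7 and Hoxa3 were at log2 differences of −0.52 and −0.70 and were not called. The levels of Hoxa9 in whole marrow, 39.6 to 83.1, overlapped those of AML from below. Of 10 Hoxb genes, 3 were kept and none was called by limma (2 had an unadjusted p under 0.05 and 1, Hoxb4, an adjusted p of 0.0201). Hoxb8 was kept through whole marrow (12.1 to 20.5), with 0 to 4.9 in AML and 0 in every lineage-negative marrow. Hoxb4 and Hoxb3 were at log2 differences of 0.66 and 0.66. Their partners of the Meis and Pbx families split, with 2 higher and 2 lower of 8 (median 0.54), against 17.9% and 13.9% of all protein-coding genes. Of the 2 higher, Meis2 passed the filter through the whole marrows, which held 23 to 41.3. It ranged from 0.845 to 14.8 (median 3.78) in AML marrow, with the most in replicate 6. The lineage-negative marrows held 0, 0, 0 and 1.96, all at or under 3 reads. Meis1 held 741, 1141, 1257 and 1079.9 in the lineage-negative marrows, against 156 to 400.4 (median 231) in AML marrow. Pbx4 was at 159, 121, 137 and 114 in the lineage-negative marrows and ranged from 12.3 to 47.3 (median 25.9) in AML. Both fell without overlap, while Meis3 rose: it ranged from 12.7 to 62.5 (median 24.2) in AML marrow and was 4.54, 3.53, 1.76 and 9.79 in the lineage-negative marrows. Pbx3 was at a log2 difference of 0.39 and was not called.

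Regulators of myeloid cells rose in 13 of 19 cases and 1 fell (median 1.83). Spi1, which encodes PU.1, measured 4569.5 to 7625 (median 5384) in AML and 1987, 1642, 1287 and 1377 in lineage-negative marrow. Cebpe, needed for secondary granules, spanned 991 to 2788 (median 1718) in the AML marrows, against 262, 318, 375 and 345 in the lineage-negative ones. Irf5, a regulator of inflammatory macrophages, ranged from 3418 to 6558 (median 5222) in AML marrow and was 764, 487, 337 and 426 in the lineage-negative marrows. All 3 rose without overlap. Id2, an inhibitor of E proteins, measured 1476 to 3093 (median 2137) in AML and 98, 182, 176 and 179 in lineage-negative marrow. AML stood above for Id2 too. Irf4 rose by 4.40. Irf8, the monocyte and dendritic regulator, rose by 1.12 with overlap, and was not called with quantile scaling (0.93) or without lineage-negative replicate 3 (0.98). Cebpa, which opens the granulocyte and monocyte path, spanned 1533 to 2902 (median 2189) in the AML marrows, against 2700.3, 2550.5, 1972 and 1862 in the lineage-negative ones, and was not called (−0.01, adjusted p = 0.973). Gfi1 was at a log2 difference of −0.43 and was not called. Egr1, an immediate early gene, fell: it measured 2557, 379, 666 and 528 in lineage-negative marrow and 28 to 305 (median 167) in AML.

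Cytokine receptors were called in both directions. Of 22 genes, 13 rose and 5 fell (median 1.23). Csf2ra, the alpha chain of the GM-CSF receptor, ranged from 3335 to 4888 (median 3883) in AML marrow and was 1205, 642, 680.4 and 639 in the lineage-negative marrows. Il10ra, the interleukin 10 receptor, measured 1583 to 6837 (median 4423) in AML and 702, 514, 432 and 459 in lineage-negative marrow. Ifngr2 and Tnfrsf1b rose by 1.95 and 2.11. Among the 5 that fell were Epor, Kit, Il5ra (−2.27) and Il1r1 (−1.38). Within the libraries with Y-linked reads, Il5ra and Il1r1 were not called (adjusted p = 0.0607 and 0.242). Il3ra was at a log2 difference of 0.10 and was not called.

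Among 12 genes listed for STAT5, which include Stat5a and Stat5b, 5 rose and none fell (median 0.92). The shares over all protein-coding genes were 17.9% and 13.9%. There were 3 rises and 1 fall within the libraries with Y-linked reads. The list was not split into genes that STAT5 raises and genes that it lowers, and STAT5 activity was not tested. Socs2, a feedback inhibitor of cytokine signalling, spanned 159 to 1291 (median 787) in the AML marrows, against 24.5, 28.2, 18.5 and 47.5 in the lineage-negative ones. Bcl6, a transcriptional repressor, ranged from 1277 to 2482 (median 1527) in AML marrow and was 239, 108, 114 and 131 in the lineage-negative marrows. Cish, another feedback inhibitor, measured 134 to 283 (median 174) in AML and 52.6, 72.3, 71.4 and 54.2 in lineage-negative marrow. All 3 rose with no overlap, by 4.33, 3.59 and 1.58. Pim1, a survival kinase, spanned 3183 to 6440.4 (median 3761) in the AML marrows, against 2748, 1968, 1724 and 2165 in the lineage-negative ones. Its groups did not overlap, but its log2 difference of 0.97 was under the size required and over it without AML replicates 3, 4 or 7 or lineage-negative replicate 1 (up to 1.10). Osm and Pim3 were at log2 differences of −0.97 and −0.80 and were not called. Osm was called lower without AML replicate 1 or 6 or lineage-negative replicate 2 or 4 (−1.02 to −1.21), and in 5 other alternatives. Feedback genes of the MAPK pathway went down more often than up, with 6 lower and 1 higher of 14 kept (median −0.95). Spry4 held 97.1, 90.8, 62.6 and 120.1 in the lineage-negative marrows, against 1.08 to 10.1 (median 2.25) in AML marrow. Spry2 was at 467, 256, 264 and 237 in the lineage-negative marrows and ranged from 40.4 to 160.4 (median 72.7) in AML. Both encode Sprouty inhibitors of receptor tyrosine kinases. Fos fell by 1.70 with overlap. Dusp6, the phosphatase of ERK, was at a log2 difference of 0.63 (adjusted p = 0.034), under the size required. Phlda1 rose by 1.51, and was not called within the libraries with Y-linked reads (adjusted p = 0.252).

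Among cell cycle genes, the replication list held calls and the mitosis list held none, and the difference between the lists was not tested. Of 24 replication genes, 14 fell and none rose (median −1.05), and 10 fell without AML replicate 3. Mcm2, a subunit of the replicative helicase, measured 9109, 8208, 6905 and 6857 in lineage-negative marrow and 1529 to 3912 (median 2916) in AML. Cdc6, which loads the helicase, held 2623, 2389, 1898 and 2387 in the lineage-negative marrows, against 399.5 to 945 (median 818) in AML marrow. No AML marrow overlapped the controls, and AML replicate 3 held the least Cdc6. None of 20 mitosis genes was called by limma (median −0.26), and 1 had an unadjusted p under 0.05. Mki67 was at 40899.6, 22302, 24745 and 32242 in the lineage-negative marrows and ranged from 14290.5 to 31469 (median 25300.5) in AML. Top2a measured 18789.7, 20253, 16784 and 17313 in lineage-negative marrow and 6374 to 17948 (median 14357) in AML. The ranges overlapped, with adjusted p-values of 0.417 and 0.163. Of 12 cyclin, kinase and inhibitor genes kept, 4 rose and 2 fell, against 17.9% and 13.9% of all protein-coding genes. The number that rose was 2 without lineage-negative replicate 4, with quantile scaling or within the libraries with Y-linked reads. Cdk6 held 22681, 17754, 22743 and 23557 in the lineage-negative marrows, against 3005 to 9053 (median 5262) in AML marrow. Cdk4 fell by 1.12, and by 0.99 without lineage-negative replicate 2, under the size required. Ccnd3, cyclin D3, rose by 1.36, but not at the threshold within the libraries with Y-linked reads (adjusted p = 0.0663). Cdkn2d, an inhibitor of Cdk4 and Cdk6, ranged from 1499 to 3477 (median 2415) in AML marrow and was 769.7, 428, 403 and 365 in the lineage-negative marrows.

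Genes of ribosome production were lower. Of 24 ribosome biogenesis genes, 21 fell (median −1.71), and the groups were apart for all 24. Myc, whose product is known to activate such genes, was at 9414, 6519, 4421 and 4909.8 in the lineage-negative marrows and ranged from 719 to 1688 (median 1157) in AML. Cad, the first enzyme of pyrimidine synthesis, measured 8327, 7765, 7253 and 6986 in lineage-negative marrow and 1169 to 2164 (median 1694) in AML. Both fell, by 2.40 and 2.18. Ncl, nucleolin, held 29658, 19121, 14986 and 13588 in the lineage-negative marrows, against 3966 to 6234 (median 5001) in AML marrow. Npm1, nucleophosmin, was at 11968, 21899, 15979 and 16304 in the lineage-negative marrows and ranged from 4510.1 to 7277 (median 6558) in AML. Pes1, Nip7 and Bop1 were lower too, by less than the size required (−0.86, −0.89 and −0.97). The summed share of the list was 0.102% to 0.171% in AML, 0.538% to 0.603% in lineage-negative marrow and 0.123% to 0.159% in whole marrow. Of 32 ribosomal protein genes, Rpl3 alone was called, lower by 1.46, against a list median of −0.35, and 6 were called lower with quantile scaling, which shifted the median of all kept genes from 0.024 to −0.12. None of 26 oxidative phosphorylation genes was called by limma (median −0.25). Among them 8 had an unadjusted and 5 an adjusted p under 0.05, all 5 under the size required, and 2 were called lower with quantile scaling.

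Of 24 glycolysis and pentose phosphate genes, 6 rose and 3 fell (median 0.55), against 17.9% and 13.9% of all protein-coding genes. Within the libraries with Y-linked reads 3 rose. Pfkfb4, which sets the level of a glycolytic activator, measured 1755 to 4327 (median 2467) in AML and 319, 219, 216 and 216 in lineage-negative marrow. G6pdx, the first step of the pentose phosphate pathway and source of NADPH, spanned 4554 to 12568 (median 6525) in the AML marrows, against 2446, 2523, 1946 and 2256 in the lineage-negative ones. Pfkm measured 1559.9, 1209, 989.9 and 1093 in lineage-negative marrow and 159 to 307 (median 207) in AML. Hk1 fell by 1.43, beside the red cell gene Pklr. Of 19 cholesterol and fatty acid genes, 1 rose, Fasn fell by 1.23 and 17 were not called (median −0.18).

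The BCL2 family holds apoptosis inhibitors and promoters. Of 14 BCL2 family genes, 6 rose and none fell (median 0.59), against 17.9% and 13.9% of all protein-coding genes. Bmf, a BH3-only protein, ranged from 750.3 to 1588 (median 1078) in AML marrow and was 101, 48.5, 36.1 and 45 in the lineage-negative marrows. Mcl1, an inhibitor of apoptosis in myeloid cells, measured 10216 to 16132 (median 13547) in AML and 4638, 4537, 4195 and 4198 in lineage-negative marrow. The Bcl2a1 paralogs, counted among the 6, rose by 5.57, 4.64 and 4.51 (Bcl2a1a, Bcl2a1d and Bcl2a1b). Reads may be split between them, so they may not be separate rises. Bcl2 was at a log2 difference of −0.72 (adjusted p = 0.0117). Of 16 genes of the p53 pathway, 4 rose and 4 fell (median 0.19), against 17.9% and 13.9% of all protein-coding genes. Fas, a death receptor, spanned 155 to 480 (median 306) in the AML marrows, against 23.6, 3.53, 17.6 and 13.1 in the lineage-negative ones. Trp53inp1 rose by 2.63. Trp53 itself held 1906, 2276, 1876 and 1844 in the lineage-negative marrows, against 811 to 1075 (median 925) in AML marrow, a fall of 1.08. Cdkn1a and Mdm2 were at log2 differences of 0.28 and 0.54 and were not called.

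Of 20 genes for writers and erasers of chromatin marks and proteins that act with them, 3 fell and none rose (median −0.45). The share that fell was near the 13.9% of all protein-coding genes. The groups did not overlap for 9 of the 20, a share near the 40.2% of all protein-coding genes. Tet1, which oxidises methylcytosine, was at 1015, 641, 1001 and 862 in the lineage-negative marrows and ranged from 143 to 417 (median 241) in AML. Dnmt3b, a DNA methyltransferase, measured 1086, 1128, 1050.5 and 834 in lineage-negative marrow and 186 to 419 (median 274) in AML. Psip1, a reader of methylated H3 lysine 36, held 2295, 3492, 2889 and 2838 in the lineage-negative marrows, against 862 to 1630 (median 1209.8) in AML marrow. No overlap between groups was seen in these genes. Dot1l, the H3 lysine 79 methyltransferase, was at a log2 difference of −0.86 and passed the size required without lineage-negative replicate 2 (−1.15). Kmt2a, Ezh2 and Setd2 were at log2 differences of −0.28, −0.63 and −0.05 and were not called. In all, the 54 lists held 752 distinct genes, of which 725 were kept, and 303 of those were called higher and 146 lower.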

How the data were processed

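Total RNA from 15 mouse bone marrow samples was extracted with TRIzol and sequenced after stranded library preparation, per the labels' protocols. The authors deposited 1 table of signal values, which are estimated read counts divided by a DESeq2 size factor of the poscounts type for each library, as the table's name says. STAR, Partek, DESeq2 and the mouse build mm10 stand in the submitters' processing notes without versions, and the strand setting of the counting is not given in the sources used here. Whole reads could not be recovered: 82.2% to 86.7% of low values lay within 0.02 of a whole multiple of the step of 1 read, so no count model was run. The starts of 861 of 38066 gene identifiers equal those of the GRCm38 annotation, so positions are printed as deposited, without a build.

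Values were taken as log2(value + 1), which understates changes of low genes, and kept for genes with at least 10 in at least 4 of 15 samples (18941 genes). Group means were fitted in limma 3.58.1 (R 4.3.3) with a mean-variance trend over all 15 libraries, with 12 residual degrees of freedom, and p-values were adjusted by Benjamini-Hochberg over all 18941 genes. A call needed an adjusted p under 0.05 and a log2 difference of at least 1. The fit was tested on simulated data. Named were the 12 largest rises and falls among called genes with a mean of at least 100 and no overlap between groups, the 5 genes with the largest gain and loss in normalized counts, and the leading and trailing members of each of 54 gene lists. Of 752 listed genes, 750 were in the table and 725 passed the filter. The members and lists were chosen with earlier results of these data known. Scaling, filter, pseudocount, weighting and left-out libraries were varied. Promoters came from RefSeq on GRCm38.p6, matched by symbol. Some members of the lists are counted but not reported by name here.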

Additional observations from a re-analysis of the deposited data

Results flagged for a closer look

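Single libraries stood apart from the others of their group in 39 of 504 groups of values tested, where the gap to the nearest library exceeded Dixon's critical value on the log2 scale. Chance would place about 1 in 20 apart, or 25.2. Values are normalized counts, with the range of the group's other libraries in parentheses, and no cause was tested. AML replicate 3 was high for H2-Eb1 at 53387 (5948 to 14308), H2-Aa at 85245 (9470.1 to 24117), Cd74 at 139510 (16908 to 34649) and Ciita at 9598 (1505 to 3124). The same library was high for Tlr11 at 1310 (95.4 to 206), Tlr3 at 908 (77.7 to 214), S1pr1 at 699.8 (47.1 to 151) and Bcl2a1d at 1123 (56.7 to 199). AML replicate 3 was low for Cxcr4 at 4795 (7853 to 11176), Il3ra at 256 (361 to 439) and Cdc6 at 399.5 (709.8 to 945). AML replicate 6 was high for Orm1 at 1771 (331 to 629.8). AML replicate 6 was low for Csf1r at 4703 (10391 to 13926), Cx3cr1 at 247 (2382 to 5436), Cd163 at 45.7 (207 to 480.4) and Cd209a at 13.6 (577 to 5215). The same library was low for Tcf4 at 763 (2153 to 4453). AML replicate 1 was low for Pklr at 0 (5.62 to 11.8), Epx at 1.27 (21 to 52.9) and Ermap at 0 (15.1 to 125). AML replicate 7 was low for Nkg7 at 173 (552 to 799) and Rpl3 at 988 (2410.2 to 3609.8). AML replicate 5 was high for Pes1 at 1559 (1128 to 1245). Lineage-negative replicate 1 was high for Itgam at 1287 (486 to 568.3), Cd14 at 208 (68.7 to 80.9), Vsir at 3043 (1524 to 1697) and Csf2ra at 1205 (639 to 680.4). The same library was high for Spry2 at 467 (237 to 264), Pfkfb4 at 319 (216 to 219) and Fasn at 8099 (6844 to 7009.6). Lineage-negative replicate 1 was low for Id2 at 98 (176 to 182). Lineage-negative replicate 2 was high for Epor at 746 (623 to 639.9) and Trp53 at 2276 (1844 to 1906). Lineage-negative replicate 2 was low for Cdk6 at 17754 (22681 to 23557). Lineage-negative replicate 3 was low for Ctsc at 998 (1404 to 1437), Cd209a at 34.4 (59.9 to 62.6) and Ifit3 at 2.64 (20.2 to 22.4). Lineage-negative replicate 4 was low for Batf3 at 1.96 (3.53 to 3.63). AML replicate 4 was sequenced more deeply, at an estimated 35.1 M reads (20.3 to 25.8 M in the other AML libraries). The genes in which AML replicate 3 was high were led by MHC class II genes, Tlr11 and Tlr3. Those in which AML replicate 6 was low were led by Csf1r, Cx3cr1, Cd209a and Tcf4, from the monocyte and dendritic cell lists. Other members of these lists differed. Itgax, Zbtb46, Clec9a and Clec10a were also lowest in AML replicate 6. Xcr1, Batf3 and Naaa, and the monocyte genes Ctss and Ms4a4c, lay within the range of the other AML marrows.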

How the results depend on the processing

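With a log2 difference of at least 2 required, 1252 protein-coding genes were called higher and 569 lower. All other alternatives run kept both counts within 1.5 times the reported 2529 and 1969. Leaving out 1 library at a time gave 2371 to 2563 higher and 1859 to 2072 lower, with the ends at lineage-negative replicate 3 and AML replicate 6, and at lineage-negative replicate 2 and AML replicate 5. Quantile scaling gave 2144 higher and 2236 lower, against 56.2% higher among all calls, and shifted the median of all kept genes to −0.118. A mean of at least 50 gave 1919 and 1461, TMM scaling 2511 and 1952, and voom 2453 and 1994. Without AML replicates 5 and 6, which had the fewest genes at 0, 2575 and 2098 were called (chosen after seeing the data). With the replicate number as a block, 2529 were higher and 2075 lower. Same-numbered AML and lineage-negative libraries had correlations of their deviations of −0.00263 to 0.113. The number gave the best partner for 1 of 4 lineage-negative libraries. With 4 such pairs, these values cannot decide whether samples of the same number were obtained together. Of 250 genes named, 217 kept direction and call in all 25 alternatives, and 21 of 54 list medians moved in at least 1, among them Meis and Pbx to 0.22 with a mean of at least 50, ribosomal proteins to −0.70 with quantile scaling, and, within the libraries with Y-linked reads, oxidative phosphorylation to −0.42 and cholesterol and fatty acid genes to 0.11. At these depths a gene under about 3 normalized counts in both groups could not be compared.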

Other observations

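Among the protein-coding genes that were not called, 10 had log2 differences over 3 in size. Of these, 4 were the Y-linked genes Ddx3y, Eif2s3y, Kdm5d and Uty, which followed the libraries with Y-linked reads. The other 6 were the predicted genes Gm10800, Gm10801, Gm10718, Gm10719, Gm10717 and Gm11168 on chromosomes 2 and 9. Gm10800 measured 12.7, 22.5, 7.35, 176, 178974, 734918 and 7151 normalized counts in AML replicates 1 to 7. In lineage-negative marrow it was at 2899.9 in replicate 1, listed at 0 in replicates 2 and 3, and at 1.96 in replicate 4, and in whole marrow it ranged from 408057 to 626100. Its log2 difference of 6.53 had an SE of 2.71 (limma adjusted p = 0.0564). The 6 genes together took 4.64% of the total of AML replicate 6, 1.15% of replicate 5, 0.043% of replicate 7 and at most 0.000971% of the other AML libraries, against 3.42% to 7.50% of whole marrow. The 2 AML libraries with the highest shares also had the fewest genes at 0, with 29.1% in replicate 5 and 23.6% in replicate 6, and whole marrow had 7.12% to 15.7%. Without AML replicates 5 and 6, 2575 protein-coding genes were called higher and 2098 lower.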
